A study of Rattus norvegicus with 2 samples.

Results

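The genes that encode the subunits of the oxidative phosphorylation complexes were compared between the bladders of control rats and of rats given dimethylarsinic acid (DMA), the main organic metabolite of arsenic. They were chosen by name: the symbol of a transcript cluster, a group of probes that covers a whole transcript, had to match the naming patterns of complexes I to V (Ndufa, Ndufb, Ndufc, Ndufs and Ndufv; Sdha to Sdhd; Uqcr; Cox4 to Cox8; Atp5), with provisional LOC and RGD names left out. This gave 103 genes out of 22093 on the array. The patterns act on names and not on measured values, but they were set with earlier results of these data known. Each gene was read from its brightest cluster, and 4 of the 103 genes had more than 1 cluster. By complex, 45 genes belonged to complex I, 4 to complex II, 12 to complex III, 18 to complex IV and 24 to complex V. The patterns caught 75 subunit genes, 2 associated factors (Cox7a2l and Atp5if1), 12 near copies of subunit genes and 14 annotated pseudogenes, and these kinds were kept apart below.

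Male F344 rats received 0 or 200 ppm DMA with their drinking water over 4 weeks, and RNA from 7 rats was mixed for each of the 2 arrays, so that 1 array stood for each group. The labels have the rats starting at an age of 6 weeks and sampled at 10 weeks and name the tissue as urinary bladder, whereas the methods of the study describe older rats at the start and epithelial cells shaken off inverted bladders. With 1 array of pooled RNA per group there was no spread between replicates, so every value below is a description of these pools, with no test and no error. The array named in the methods also differs from the one in the deposited values.

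Oxidative phosphorylation is carried out by protein complexes in the inner mitochondrial membrane. Complex I takes electrons from NADH and complex II from succinate, complex III passes them on to cytochrome c, complex IV hands them to oxygen, and complex V, the ATP synthase, uses the proton gradient that complexes I, III and IV build up. Apart from a few subunits that mitochondrial DNA encodes, the subunits are nuclear gene products that are made in the cytosol and imported. In mammals some subunits exist as muscle, lung or testis forms beside the form found in most tissues.

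The signals are linear RMA intensities, and a gene counted as measured where at least 1 of its signals reached 100. This held for 90 of the 103 genes, and for 11718 of all 22093 genes. The uroplakins are the defining proteins of the urothelium. Signals of Upk1a, Upk1b, Upk2 and Upk3a were high in both pools, for example 544597 (control) and 561252 (DMA) for Upk2. Upk3b was dimmer, at 1480 and 1407. The urothelial list had 17 genes, of which Krt5 and Trp63 were not found among the genes read from the array. The values below thus do not cover them. Its 15 measured genes had a median log2 ratio of DMA over control of 0.04 and a summed signal of 1980503 (control) and 2106307 (DMA). Of these 15 genes 2 were 1.2-fold or more higher in the DMA pool, among them the keratin gene Krt18 (log2 0.68). Krt20, a keratin of the surface layer, was the 1 lower gene (log2 -1.23). All 11 smooth muscle genes were lower in the DMA pool (median log2 ratio -0.32, summed signal 742920 and 573361), as were all 9 fibroblast genes (median -1.44, 444584 and 215531). The 2 measured red cell genes of 3 were also lower (median -1.70), and the summed signal of all 3 was 89494 and 19030. Hbb (223 and 99.6) counted as measured only through the control pool, so its direction carries no information, and the median includes it. Of the 5 mitosis genes the 4 measured were all higher in the DMA pool (median 1.68), and the summed signal of all 5 was 439 and 1446. Ccna2 (107 and 282) and Mki67 (117 and 611) reached 100 in both pools. Ccnb1 (65.5 and 122) and Top2a (86.5 and 335) were under 100 in control. The signal minimum could admit Ccnb1 and Top2a only with a higher DMA signal, so their direction carries no information, and the median includes them. The part these differences had in the values below was not tested, and in bulk RNA fewer cells of a type cannot be told apart from less RNA per cell.

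No oxidative phosphorylation gene passed the study's thresholds. These ask for a 2-fold difference together with a Z score of 2 or more in either direction. The methods do not say over which genes the Z score was taken, and the 500 genes nearest in signal were used here. On the higher side 0 of 90 measured genes qualified, against 0.375% of all measured genes, and on the lower side 0 of 90, against 1.42%. On a smaller, descriptive scale, 0 of 90 were 1.2-fold or more higher in the DMA pool (6.45% of all measured genes). On the lower side 12 of 90, or 13.3%, were 1.2-fold or more lower (17.4%). The 12 include Ndufa3-ps3, which the signal minimum could admit only through its control signal. A ratio above 1 was found for 40 of 90, or 44.4%, against 41.1% of all measured genes. The median log2 ratio was -0.02 over the 90 genes, with quartiles of -0.15 and 0.07 and a range from -0.64 to 0.23. Over all measured genes the median was -0.04, the quartiles -0.18 and 0.08 and the range -4.74 to 2.59. Without the signal minimum the median of all 103 genes was -0.01.

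The subunit genes proper lay mostly within 1.2-fold. Of the 68 measured, 62 (91.2%) did so between the pools, against 76.2% of all measured genes, and 35 were higher and 33 lower in the DMA pool, with a median log2 ratio of 0.01. With the arrays centred on the median of all clusters this median was -0.09, beside -0.14 for all measured genes, and 16 of the 68 were higher, so a direction near 0 depended on the scaling. Their ratios had an SD across genes of 0.163, compared with 0.316 for all measured genes. Their signals ran from 104 (Uqcrq in the DMA pool) to 37265 (Cox6c in the control pool). Split by signal, the share within 1.2-fold was 80.0% of 10 subunit genes at a mean log2 signal of 7 to 8 and 100% of 26 at 8 to 10, then 89.5% of 19 at 10 to 12 and 81.8% of 11 at 12 to 16. Uqcrq and Atp5d lay below these ranges. The corresponding shares of all measured genes were 73.8%, 77.7%, 80.7% and 75.8%. Of the 6 subunit genes that were 1.2-fold or more lower, 4 were in complex I and 2 in complex V.

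**Figure D1:**
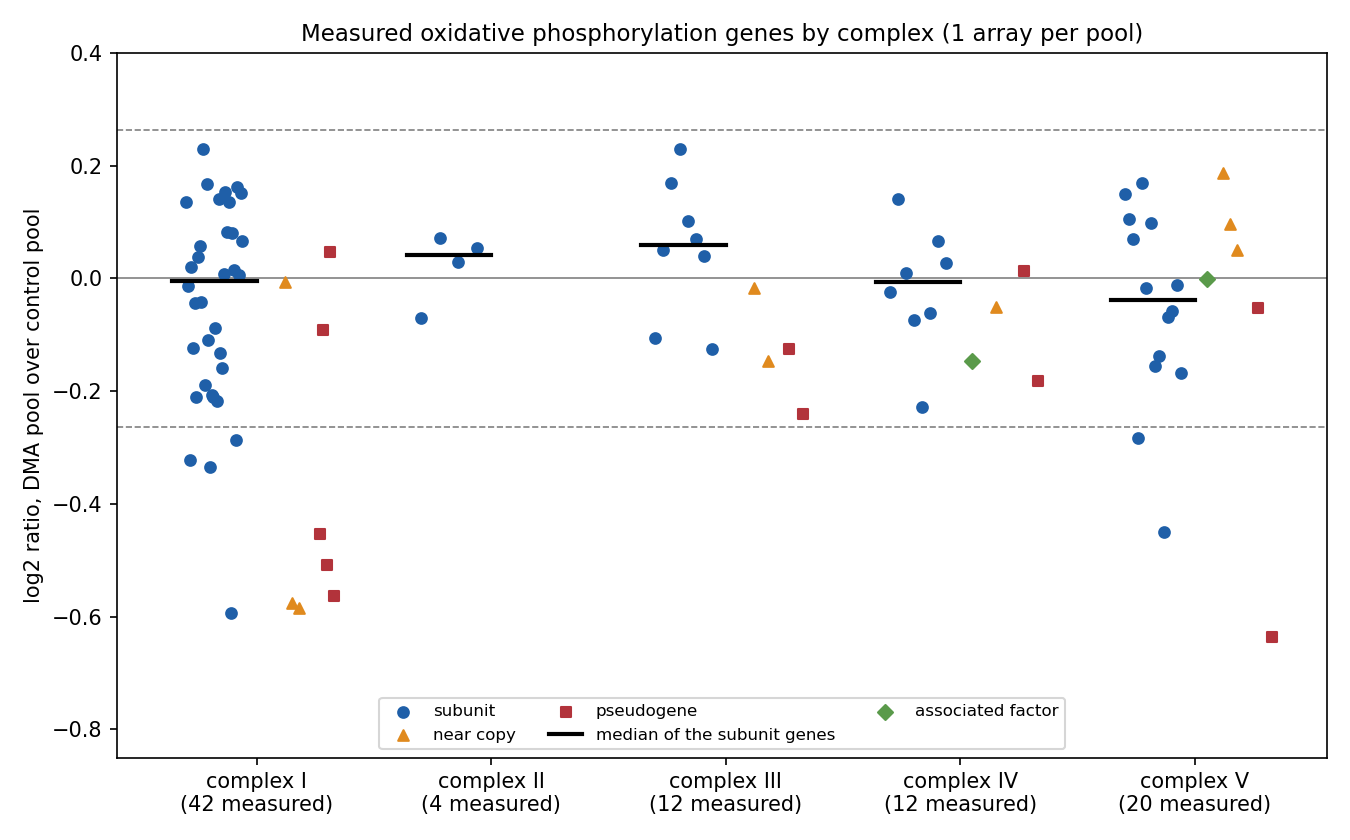
Log2 ratio of the DMA pool over the control pool (y axis) for each of the 90 measured genes, grouped by complex (x axis). Symbols mark subunit genes, near copies, pseudogenes and associated factors, thick bars mark the medians of the subunit genes and dashed lines a 1.2-fold difference: no point lies above the upper line and 12 lie below the lower one.

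The core subunits of complex I carry the flavin and iron-sulfur clusters that move electrons from NADH to ubiquinone. Of the 6 measured nuclear core genes 5 were slightly higher in the DMA pool (median of the 6, log2 0.11), where 41.1% of all measured genes were higher. Ndufv1, which binds NADH, had signals of 1318 (control) and 1322 (DMA). Ndufs1, the largest subunit, was at 2027 and 2147, a log2 ratio of 0.08. The pools were within 1.2-fold of each other for both of these genes. Ndufv2 (2238 and 2486, log2 0.15), Ndufs3 (370 and 406, log2 0.14) and Ndufs8 (250 and 279, log2 0.16) were likewise a little higher in the DMA pool. Ndufs7, an iron-sulfur subunit next to the ubiquinone site, was the exception at 272 and 223, a log2 ratio of -0.29.

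Around this core sit accessory subunits, and here the genes of the Ndufb series, whose products lie in the membrane arm, lay mostly on the other side of 0. Of 11 Ndufb genes 9 were lower in the DMA pool, with a median log2 ratio of -0.16, although only Ndufb2 (224 and 177, log2 -0.34) reached 1.2-fold. Over all measured genes 6902 of 11718 were lower. Ndufb6 was at 962 and 828, Ndufb4 at 323 and 279, and Ndufb9 at 2311 and 2070. The exceptions were Ndufb7 (252 and 278) and Ndufb10 (565 and 635, log2 0.17), both slightly higher in the DMA pool. The other 16 measured accessory genes had a median of 0.02 and included the widest differences of any subunit genes of complex I in both directions. Core, Ndufb and other accessory genes were separated after their values had been seen. Centring the arrays on the median of all clusters lowers every log2 ratio by the same amount, and the core genes then came to 3 above and 3 below 0. Under that centring 2 of 11 Ndufb genes (median -0.26) and 22.3% of all measured genes were above 0. In that setting the Ndufb count thus lay near the share of all measured genes. Under a lowess correction 9 of 11 Ndufb genes were below 0, with a median of -0.12, and 49.9% of all measured genes were above 0.

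Ndufs4 showed the largest difference of all subunit genes. This small accessory subunit holds the NADH-oxidising module on the rest of complex I, and its loss causes Leigh syndrome in humans and a similar encephalopathy in mice. Its signals were 1638 (control) and 1086 (DMA), which is 1.51-fold lower (log2 -0.59, Z score -1.51). The other 7 measured genes of the NADH-oxidising module were Ndufs1, Ndufs6, Ndufv1, Ndufv2, Ndufv3, Ndufa2 and Ndufa12. They ran from -0.12 to 0.15, so that Ndufs4 stood apart from the genes of its own module. The module was set apart after the values had been seen, and Ndufs4 was read from 1 cluster. Ndufa11, a membrane arm subunit, was also 1.2-fold or more lower, at 1806 and 1444 (log2 -0.32). At the other end was Ndufa9, which sits near the ubiquinone site, with 2245 and 2632 (log2 0.23). Ndufa4, named for complex I but found as part of cytochrome c oxidase in mammals, was at 1613 and 1394 (log2 -0.21). Over the 34 measured subunit genes named for complex I, Ndufa4 among them, the median log2 ratio was 0.00, with 17 above and 17 below 0.

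Complex II, which is also the succinate dehydrogenase of the citric acid cycle, was nearly equal in the pools. The flavoprotein gene Sdha was at 3116 (control) and 2968 (DMA), a log2 ratio of -0.07, and the iron-sulfur gene Sdhb at 520 and 546, a log2 ratio of 0.07. The membrane anchors Sdhc (2346 and 2393) and Sdhd (595 and 618) lay between these. All 4 genes were thus within -0.07 to 0.07 on the log2 scale.

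In complex III the 3 genes for the large core proteins and the Rieske iron-sulfur protein were each slightly higher in the DMA pool. Of all measured genes 41.1% were higher. With the arrays centred on the median of all clusters 2 of these 3 were above 0, with a median of 0.00. Under that centring 22.3% of all measured genes lay above 0. Uqcrc1, a core protein, had 697 and 817, the highest ratio of the 90 measured genes (log2 0.23). Uqcrc2, the other core protein, had 8335 and 8941 (log2 0.10), and Uqcrfs1, the Rieske protein, 146 and 153 (log2 0.07). Among the small subunits Uqcrb, which helps to form the ubiquinone pocket, was at 897 and 1008 (log2 0.17), while Uqcrq (113 and 104, log2 -0.12) and Uqcr10 (1646 and 1530, log2 -0.11) were on the lower side. All 8 subunit genes stayed within 1.2-fold, with a median of 0.06. Cyc1, the cytochrome c1 gene of this complex, lies outside the naming patterns and was at 349 and 406 (log2 0.22).

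For complex IV all 8 measured subunit genes, Ndufa4 not among them, were also within 1.2-fold, with a median of -0.01. Cox4i1, which regulates the enzyme, was at 1761 (control) and 1732 (DMA), Cox5a at 1122 and 1236 (log2 0.14), and Cox5b at 196 and 197. Cox5a was the highest of the complex and Cox6c the lowest, at 37265 and 31827 (log2 -0.23). Cox6a1 (10603 and 10070), Cox7a2 (4902 and 4700), Cox7b (1655 and 1733) and Cox8a (353 and 360) lay between. The forms known from other tissues were below 100 in both pools, so that no ratio is given for them: Cox4i2, the form induced by low oxygen in lung, had 67.8 and 71.0, Cox6a2 of heart and skeletal muscle 31.4 and 40.0, Cox8b of the same muscles 19.4 and 17.6, Cox7b2 of testis 22.1 and 23.9, and Cox8c of testis 35.8 and 44.7. Ndufa4l2, which low oxygen induces, was at 47.2 and 51.3. The skeletal muscle markers had a summed signal of 2094 and 2118, with 5 of 9 genes measured, and the brown fat markers Ucp1 and Cidea were both below 100. Cox7a2l, which joins complexes III and IV into supercomplexes, was at 2793 and 2524 (log2 -0.15). Cox7a1 and Cox6b2 were not analysed here as single genes.

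In complex V the genes of the catalytic head lay mostly above 0, and those of the peripheral stalk and of the membrane part outside the c ring lay below. The alpha and beta subunit genes of the head, Atp5f1a (9397 and 10107, log2 0.11) and Atp5f1b (19074 and 20032, log2 0.07), were slightly higher in the DMA pool, as was Atp5d for the delta subunit (106 and 118, log2 0.15). Atp5f1e, the epsilon subunit of the central stalk, was lower, at 6771 and 5567 (log2 -0.28). The genes of the proton-carrying c ring, Atp5mc1 (323 and 364, log2 0.17), Atp5mc2 (5816 and 5749, log2 -0.02) and Atp5mc3 (539 and 577, log2 0.10), encode the same mature protein. The 7 genes of the peripheral stalk and of the membrane part outside the c ring were all lower in the DMA pool. They ran from -0.45 to -0.01 with a median of -0.14, and 6902 of all 11718 measured genes were lower. The lowest was Atp5mk, a small membrane subunit that links ATP synthase dimers, at 12032 and 8815 (1.37-fold lower). The next were Atp5po (606 and 540), Atp5mf (642 and 577) and Atp5mg (425 and 386), all within 1.2-fold. With the arrays centred on the median of all clusters the head and c ring genes had medians of -0.01 and 0.00. Under the lowess correction 2 of these 7 stalk and membrane genes came out above 0 and their median was -0.10. This grouping too was made after the values had been seen. The inhibitor gene Atp5if1, whose product stops the enzyme from running backwards, had equal signals, 1576 and 1574.

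**Figure D2:**
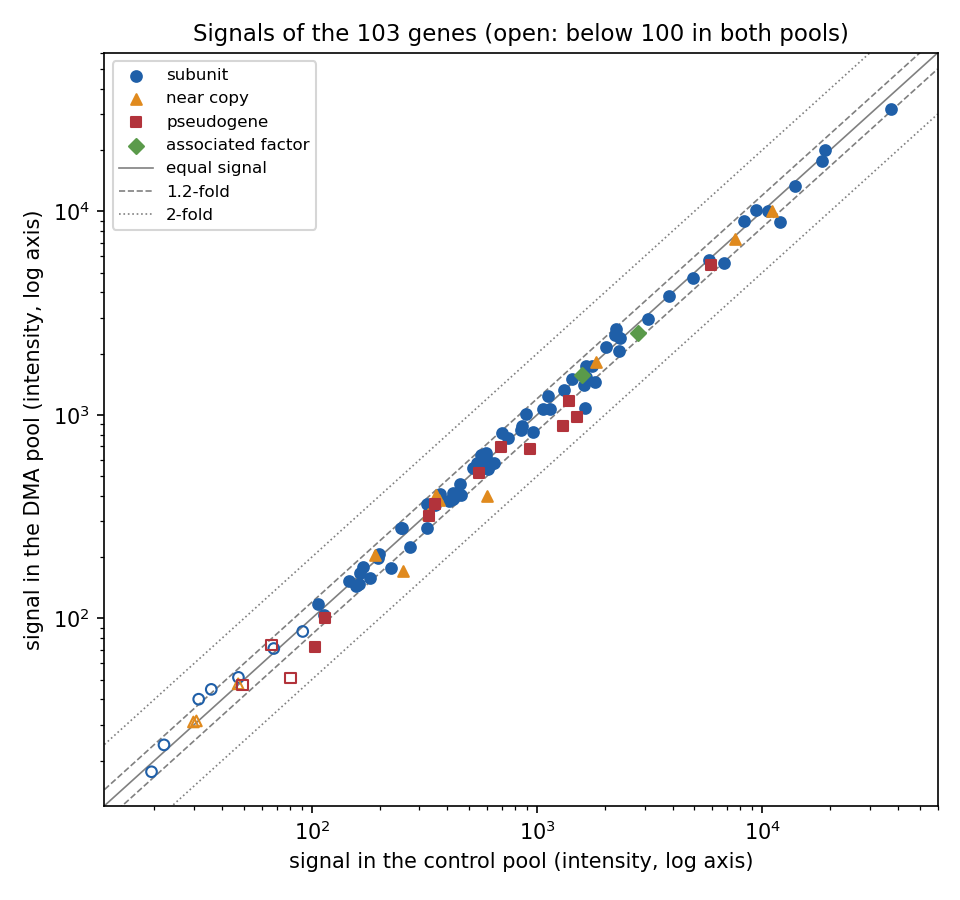
Signal in the control pool (x axis, log scale) against signal in the DMA pool (y axis, log scale) for all 103 genes, with open symbols for the 13 below 100 in both pools. Lines mark equal signal, 1.2-fold and 2-fold differences: the measured genes lie along the line of equal signal, and none reaches a 2-fold line.

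Second clusters gave a check on the array itself for 4 genes. The dimmer cluster of Atp5f1e was at 2879 and 2095 (log2 -0.46) and that of Atp5mk at 1137 and 877 (log2 -0.37), so both clusters of each gene were lower in the DMA pool. For Atp5pb, the b subunit of the stalk, the brightest cluster was at 14029 and 13375 and the dimmer at 2085 and 1909, and for Ndufa1 they were at 591 and 649 and at 160 and 163. The clusters of a gene are not all at the gene itself. The chromosome in the cluster name was the one RefSeq gives the gene for 103 of 106 member clusters (97.2%). The 3 others were those of Cox6b1-ps1 (cluster on chromosome 1, gene on 2), the brightest of Atp5mk (cluster on 10, gene on 1) and the dimmer of Atp5f1e (cluster on 14, gene on 3). The 2 lowest subunit genes of complex V were thus each read, in 1 of their clusters, at a place on another chromosome.

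Of the 12 genes that were 1.2-fold or more lower, 6 were near copies or pseudogenes, out of 20 such genes measured, and 6 were subunit genes, out of 68. The share over all measured genes was 17.4%. The median log2 ratio was -0.02 for the 9 near copies, with 6 below 0, and -0.18 for the 11 pseudogenes, with 9 below 0. Among all measured genes 6902 of 11718 were below 0. The median of the near copies turned to 0.02 under the lowess correction. The lowest of the 90 measured genes was a pseudogene, Atp5mf-ps2, at 1510 and 972 (1.55-fold lower, Z score -1.87), whereas Atp5mf itself was at 642 and 577. Ndufv3-ps1 was at 1302 and 881 beside 1432 and 1500 for Ndufv3. Ndufb4l3 (598 and 399) and Ndufb4l1 (255 and 171) were both lower than in control, beside 323 and 279 for Ndufb4. Ndufa13-ps1 was at 930 and 679, and Ndufa3-ps3, the only one of the 90 genes to reach 100 in a single pool, at 103 and 72.4. The signal minimum could admit Ndufa3-ps3 only with a higher control signal, so its direction carries no information. The counts of lower genes and the pseudogene median above include it. With both signals at least 100, 11 genes were 1.2-fold or more lower. At the upper end Atp5mc1l1 was at 355 and 404 (log2 0.19), close to the log2 ratio of 0.17 of Atp5mc1.

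Of the 20 measured copies, 16 stood beside a measured gene that their symbol names. These were 12 genes in all, so some pairs share a gene and are not independent. In 10 of these 16 pairs the copy had the lower log2 ratio, with a median difference of -0.18. The sharpest were Ndufv3-ps1 (difference -0.63) and Atp5mf-ps2 (-0.48). Ndufa3-ps3 came next (-0.47), but the signal minimum fixed the direction of its own ratio, and the 10 pairs and the median include it. The 3 copies of Uqcrb, Uqcrb-ps1, Uqcrb-ps2 and Uqcrbl1, were each lower in the DMA pool while Uqcrb was higher. In 8 of the 16 pairs the copy's cluster was brighter than the gene's in control, such as Uqcrbl1 at 11102 beside Uqcrb at 897, although levels of different clusters are not on 1 scale. Probes in a near-identical copy can bind RNA of the gene it resembles, and the share of each in these signals was not tested.

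**Figure D3:**
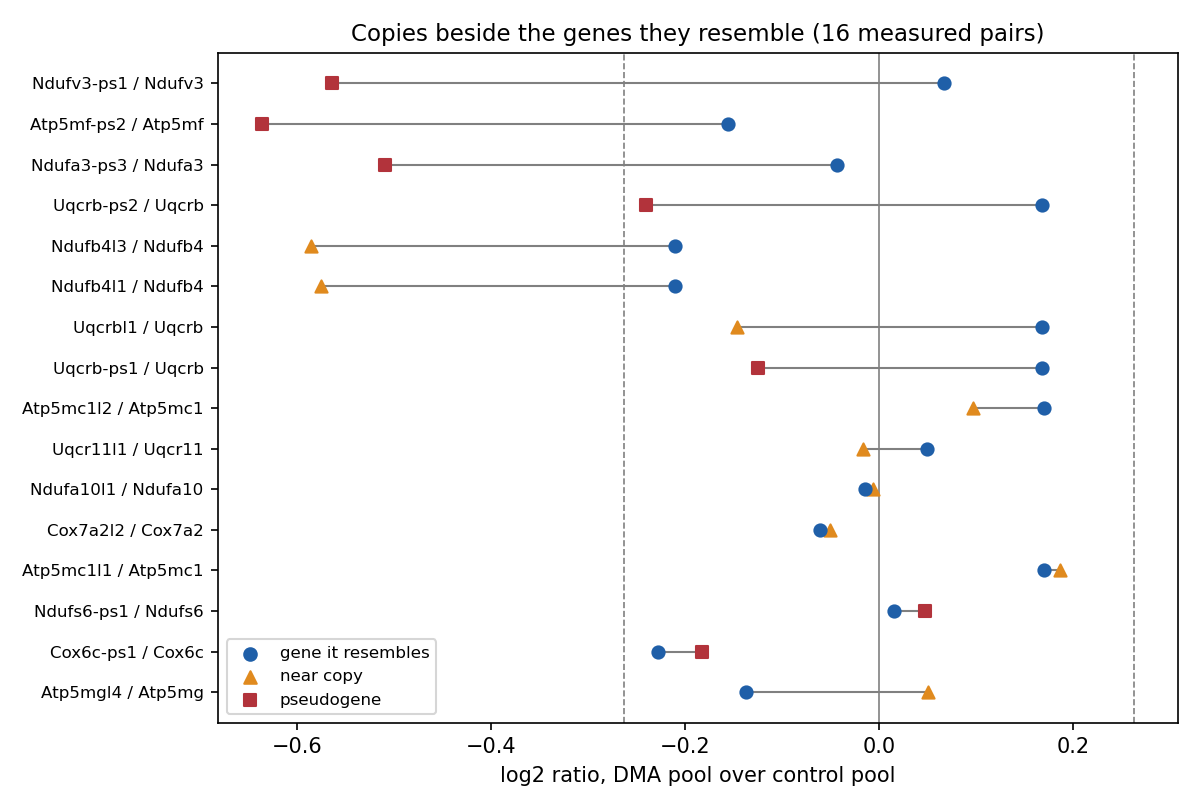
Log2 ratio of the DMA pool over the control pool (x axis) for 16 near copies (triangles) and pseudogenes (squares) and for the measured genes they resemble (circles), 1 pair to a line, ordered by the difference. The copy lies to the left of its gene in 10 pairs, and dashed lines mark 1.2-fold.

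The promoters of subunit genes are known for short binding sequences of ETS factors, NRF-1 and YY1, which are regulators of mitochondrial genes. RefSeq promoter windows of the GRCr8 assembly, 250 bases before to 50 bases after the start, were found for 66 of the 75 subunit genes and searched on both strands for exact letters. CCGGAAG (ETS) was found in 19 windows (28.8%), against 9.21% of the 27457 windows of all genes and 11.2% of the 19005 of protein-coding genes. GCGCANGCG (NRF-1) was found in 15 (22.7%, against 6.21% and 7.98%) and AAGATGGCG (YY1) in 10 (15.2%, against 1.92% and 2.27%). At least 1 of the 3 was present in 37 windows (56.1%, against 15.4% and 18.9%). GGGCGG (SP1) was found in 31 (47.0%, against 34.7% and 42.9%), and TCAAGGTCA (ERR) in 2 (3.03%, against 0.397% and 0.342%). None of the 5 strings contains another. A match is a run of letters and not a site shown to be bound. Among the 26 near copies and pseudogenes 9 had a window, and 0 of these 9 held any of the 5 motifs.

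The ratios of the genes with the YY1 letters covered the whole range of the subunit genes. They were Ndufs4, Ndufs7, Atp5mf, Ndufb8, Ndufa2, Ndufa6, Atp5pf, Ndufs6, Ndufa9 and Uqcrc1, so the lowest subunit gene (Ndufs4, log2 -0.59) and the 2 highest (Ndufa9 and Uqcrc1, both log2 0.23) all carried the same letters. The stretches from 120 bases before to 30 bases after the start are shown for these 3 genes, for Sdhb, whose signals were nearly equal, and for the near copy Ndufb4l3, which holds none of the motifs. They were picked after the values had been seen. Capitals mark matches to the ETS, NRF-1 and YY1 letters on either strand. The stretches, 5′ to 3′ along the gene, are chr2:47794885-47795034 (minus strand), chr4:161374141-161374290 (minus strand), chr8:118468103-118468252 (plus strand), chr5:158547814-158547963 (plus strand) and chr1:96616725-96616874 (plus strand).
Ndufs4: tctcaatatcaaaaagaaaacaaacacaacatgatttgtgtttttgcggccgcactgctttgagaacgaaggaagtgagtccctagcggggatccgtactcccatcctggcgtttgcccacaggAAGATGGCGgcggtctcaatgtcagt
Ndufa9: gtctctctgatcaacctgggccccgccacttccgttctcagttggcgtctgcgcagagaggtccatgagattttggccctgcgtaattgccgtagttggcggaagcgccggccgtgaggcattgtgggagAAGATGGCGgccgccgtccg
Uqcrc1: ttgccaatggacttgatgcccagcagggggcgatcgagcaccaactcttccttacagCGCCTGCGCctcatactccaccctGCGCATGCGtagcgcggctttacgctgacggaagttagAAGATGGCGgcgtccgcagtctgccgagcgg
Sdhb: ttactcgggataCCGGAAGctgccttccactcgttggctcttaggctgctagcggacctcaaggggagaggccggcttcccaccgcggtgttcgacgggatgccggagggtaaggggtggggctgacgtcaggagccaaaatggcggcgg
Ndufb4l3: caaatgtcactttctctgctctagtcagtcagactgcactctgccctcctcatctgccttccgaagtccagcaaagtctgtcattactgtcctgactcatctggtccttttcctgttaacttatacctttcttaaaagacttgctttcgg

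In Ndufs4, Ndufa9 and Uqcrc1 the capitals AAGATGGCG fall at or just past the start of the transcript. Uqcrc1 also holds a pair of NRF-1 matches upstream of it, 1 on each strand, and Sdhb a single ETS match. The stretch of Ndufb4l3 has no capitals.

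Other mitochondrial genes also lay mostly within 1.2-fold, as did 76.2% of all measured genes (6.45% were higher and 17.4% lower). The 46 measured assembly factors had a median log2 ratio of -0.04, with 1 gene 1.2-fold or more higher (Cox14, 332 and 402) and 3 lower, among them Cox15, which makes haem A for complex IV (995 and 789, log2 -0.33). The 16 genes of the citric acid cycle had a median of 0.06, and Idh2, the mitochondrial NADP-dependent isocitrate dehydrogenase, was the single one 1.2-fold or more lower (1117 and 793, log2 -0.49). For 70 mitochondrial ribosomal genes the median was -0.04, with 1 higher (Mrps14, log2 0.41) and 6 lower (the lowest Mrpl17-ps2, log2 -0.55). Near copies and pseudogenes were not kept apart in this list, and the 6 include the pseudogenes Mrpl17-ps2 and Mrpl42-ps2. Mrpl42-ps2 (100 and 77.4) reached 100 only in the control pool, so its direction carries no information. For 25 genes of protein import the median was -0.03, with none past 1.2-fold, from Tomm70 at -0.23 to Timm8b at 0.21. The 6 subunits and electron carriers outside the naming patterns had a median of 0.14, with Etfdh highest (log2 0.27) and Cycs lowest (-0.05, or -0.25 as the mean of its clusters). No gene of these lists, nor of those that follow, passed the study's thresholds.

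Regulators and partners showed a few single differences. Of 16 measured biogenesis regulators Ppargc1b, a coactivator of mitochondrial genes, was lowest (298 and 230, log2 -0.37) and Polg2 highest (log2 0.21). Esrra (-0.07), Nrf1 (0.01) and Tfam (0.06) differed little, and Ppargc1a was below 100 in both pools (50.4 and 52.0). The adenine nucleotide carriers went in opposite directions: Slc25a4, the heart and muscle form, was at 5292 and 4671 (log2 -0.18), and Slc25a5, the form of proliferating cells, at 8970 and 10650 (log2 0.25). The 11 fission and fusion genes ran from -0.15 (Mff) to 0.19 (Oma1). Among uncoupling and antioxidant genes Ucp2 was highest (78790 and 89737, log2 0.19, or 0.31 under the lowess correction) and Nnt, which makes mitochondrial NADPH, lowest (713 and 593, log2 -0.27). The 3 mitochondrially encoded genes with a cluster all belong to complex IV and were lower in the DMA pool: COX1 (884210 and 836259, log2 -0.08), COX2 (536817 and 401091, log2 -0.42) and COX3 (572827 and 486288, log2 -0.24). Under the lowess correction COX1 turned to 0.12 and COX2 came to -0.24.

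**Figure D4:**
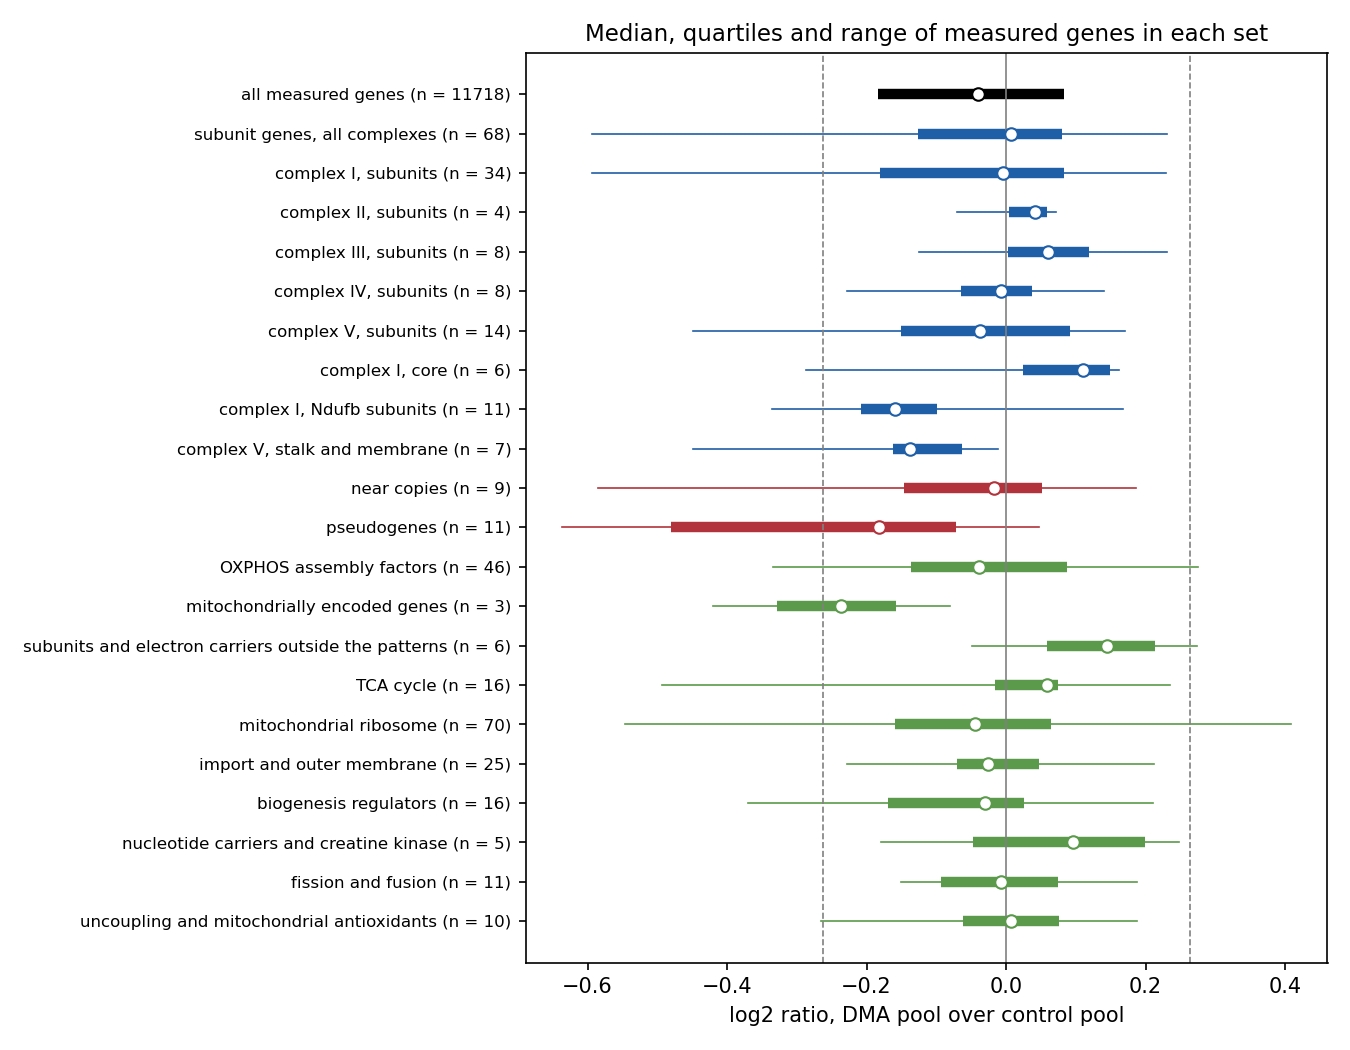
Median (circle), quartiles (thick bar) and range (thin line, not drawn for all measured genes) of the log2 ratio of the DMA pool over the control pool (x axis) for each set of measured genes (y axis, with the number of genes). The medians of the 5 complexes lie between -0.04 and 0.06, that of the Ndufb genes at -0.16 and that of the pseudogenes at -0.18, with dashed lines at 1.2-fold.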

How the data were processed

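RNA of 7 rats per group was mixed and measured on 1 array per group. The deposited values are linear intensities, 1 for each transcript cluster and array. The authors normalised them, according to the labels, by RMA with Affymetrix Expression Console (version 1.4.1). The genome build behind the clusters was not given in the sources used here. The log2 of 100% of the values in both columns had 6 decimals, so the values were taken as antilogs of log2 signals. Median signals of all 68842 clusters were 49.7 (control) and 53.2 (DMA). RMA narrows ratios of dim transcripts and removes a shift shared by most of them. The number of arrays limits the precision, and no depth applies.

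Clusters with exactly 1 gene symbol (23446) were used, symbols being updated through RefSeq gene identifiers, and the brightest cluster stood for a gene. Ratios were DMA over control. The Z score was the distance from the mean ratio of the 500 genes nearest in signal, in SDs. These 500 genes, the 1.2-fold limit and the signal minimum of 100 on the higher signal were choices made here; the study's methods remove signals under 100. Calculations used Python 3.11.15 with numpy 2.4.6, pandas 2.3.3 and statsmodels 0.14.6 (lowess, fraction 0.3), and were tested on simulated data.

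Named genes were the 2 highest and 2 lowest measured genes of each complex, fixed core and isoform genes, the highest and lowest of each other mitochondrial list, and Ppargc1a, Esrra, Nrf1 and Tfam. Other genes were named after their values had been seen. The members, lists, kinds of copy and motifs were chosen with earlier results of these data known. Alternatives were centring, lowess, no signal minimum, both signals at least 100, the mean of a gene's clusters, other gene assignments and another Z score. Genes whose clusters carry several symbols were not read as single genes.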

Additional observations from a re-analysis of the deposited data

How the results depend on the processing

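Of the summary values set against alternatives, 135 stayed within the limits used and 6 did not. The limits were 1.5 times for a count and 0.1 on the log2 scale for a median, the latter set after the data had been seen. No member passed the study's thresholds in any setting, so there was no call to reverse. Of 104 medians 14, all near 0, changed sign, as did 16 of 280 values of named genes. With the arrays centred on the median of all clusters, which moved the median of all measured genes from -0.04 to -0.14, 21 of the 90 genes were 1.2-fold or more lower and 17 above 0. In that setting 27.4% and 22.3% of all measured genes were so. Under a lowess correction on signal 2 genes were 1.2-fold or more higher (Ndufa9 and Uqcrc1), and the median of the mitochondrially encoded genes came to -0.055. Without a signal minimum 2 were higher (Cox6a2 and Cox8c, both below 100). With the subunit genes alone, an alternative added after seeing the data, 6 were 1.2-fold or more lower. The study's thresholds gave 44 higher and 166 lower genes over all measured genes, and 19 and 159 with both signals at least 100. No paired analysis was possible because each group had 1 array. With 1 array per group no replicate could be left out.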

Other observations

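Some oxidative phosphorylation genes had clusters that carry several symbols, so that the gene behind the signal is not settled. The cluster shared by Cox7c and LOC252890 was at 179 (control) and 168 (DMA), that of Atp5f1c, the gamma subunit of the ATP synthase head, and Taf3 at 579 and 613, and that of Atp5me and Slc49a3 at 58.2 and 66.4. The cluster shared by Cox6b2, the testis form of a complex IV subunit, and Garin5b was at 60.8 and 62.2. Of the subunit genes found in most tissues Ndufa6 was below 100 in both pools (91.1 and 86.2).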
